A study of Arabidopsis thaliana with 12 samples.

Results

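Cytochrome P450 genes were followed across 12 Affymetrix arrays of Arabidopsis root protoplasts (ecotype Columbia), cells freed of their walls. All cells were transformed with ABI3-GR, a form of the seed transcription factor ABI3 fused to a steroid receptor domain that keeps it out of the nucleus until dexamethasone (DEX) is given. The groups were cells with neither treatment, with 10 µM DEX, with 35 µM cycloheximide (CHX, which blocks protein synthesis), and with both, with 3 arrays each. Cells without the construct were not analysed here, so a DEX effect includes any effect of the steroid itself, and a CHX effect was seen only in ABI3-GR cells. Whether the replicates came from separate batches of protoplasts is not stated in the labels, and each p-value then reflects no more than how these 12 arrays scatter.

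Members were genes named alone by a probe set whose symbol is CYP, a family number of 2 or 3 digits and a subfamily letter. This gave 23 genes of 13356 named by a single-gene probe set, each with 1 probe set. The gene table used for names lists 236 such symbols, so most of the family is not analysed here. The letter matters, because plant cyclophilins also carry CYP symbols. Of the 23, 19 belong to the subfamily CYP71B, of which the gene table lists 36, and CYP51G, CYP78A, CYP79A and CYP84A had 1 member each. CYP51G2 and CYP71B27 are annotated as transcribed pseudogenes.

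P450 enzymes are heme proteins, in plants mostly anchored in the endoplasmic reticulum, that take electrons from a reductase and use oxygen to oxidise a bound substrate. Plants have very many of them, which shape lignin, suberin, hormones, sterols, glucosinolates and defence compounds. The CYP71B subfamily is large in Arabidopsis and lies partly in tandem arrays. Its best known enzyme, CYP71B15 (PAD3), makes the defence compound camalexin and is not analysed here. Of the members with a known role, CYP71B6 acts on indole-3-acetonitrile, CYP79A2 starts benzylglucosinolate synthesis from phenylalanine, CYP84A4 makes precursors of the arabidopyrones, and CYP78A9 promotes the growth of fruits and seeds. For most CYP71B members a substrate is not named here.

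The members lie together on the chromosomes: 17 of the 23 fall into 3 runs, with at most 10 genes from one member to the next in the TAIR10.1 gene order. The longest run, from AT3G26150 to AT3G26330, has 24 genes, of which 11 are members (CYP71B16, CYP71B21 to CYP71B26 and CYP71B34 to CYP71B37), 7 are other P450 genes and 6 are other genes. The run from AT1G13070 to AT1G13100 holds CYP71B27, CYP71B28 and CYP71B29. The run from AT3G53280 to AT3G53300 holds CYP71B5, CYP71B30P and CYP71B31. The remaining 6 members stand alone.

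Levels below are log2 intensities, with a floor of 4 (an intensity of 16), and a difference of 1 is 2-fold. Levels are compared between arrays for 1 gene, not between genes. Of the 23 members, 14 were at the floor on at least 1 array, against 34.2% of all probe sets, and no member was at the floor on all 3 arrays of a group. Only 4 members had a mean of 8 or more over the 12 arrays (CYP71B5, CYP71B6, CYP71B21 and CYP71B23). For these the standard error of a change between groups was 0.16 to 0.26, and for the other 19 it was 0.39 to 0.94. The arrays differed too: 8 members were at the floor on replicate 2 of neither treatment and 8 on replicate 3 of both, against 0 to 5 on the other 10 arrays.

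**Figure D1:**
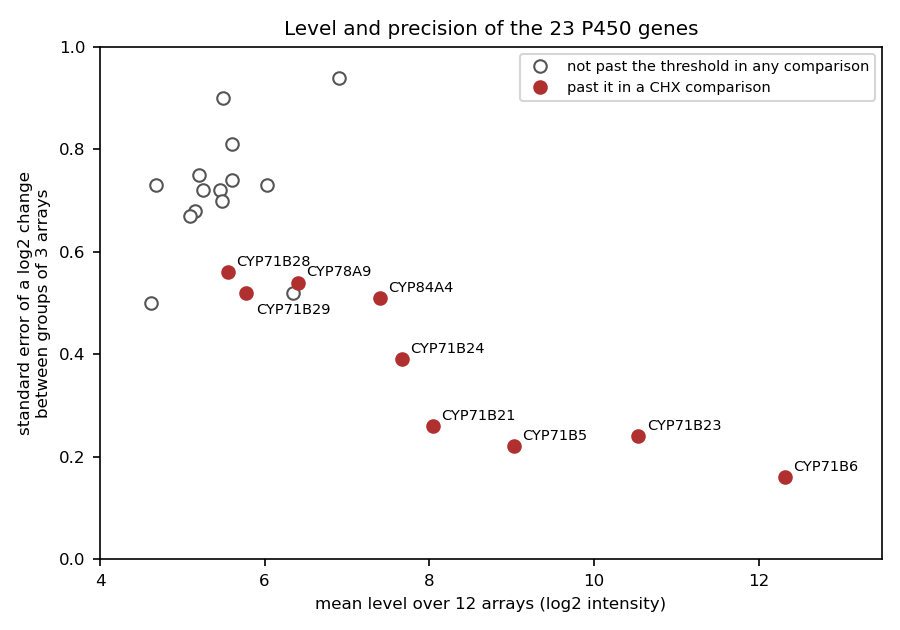
Mean level over 12 arrays (x axis, log2 intensity) against the standard error of a log2 change between groups of 3 arrays (y axis) for the 23 genes. Filled points passed the threshold in a CHX comparison. The 4 genes with a mean of 8 or more have standard errors of 0.16 to 0.26; the other 19 lie between 0.39 and 0.94.

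Of all probe sets, between 2.84% and 17.85% per array did not exceed the floor. Replicate 1 of CHX alone had hybridisation controls with a geometric mean of 230.7, against at least 8733 on each other array; without it the member counts given next were 5 higher and 2 lower for CHX without DEX, and 5 higher and 0 lower with DEX. The lowest array weights were those of replicate 2 of neither treatment (0.438) and replicate 2 of both (0.468). A listed gene counts as measured here and below only if a probe set names it alone. Other listed genes may still be on the array, where 8730 probe sets name no gene and 503 name several. Of 20 root marker genes 3 were measured. PYK10 reached 13.55 on its highest array. NAI2 stood at 12.46 ± 0.47 (SD, n = 3) in untreated cells, and the root hair gene EXPA7 at 5.81 ± 1.0 (SD, n = 3). Of 14 shoot and photosynthesis markers only RCA was measured, at 8.34 ± 0.40 (SD, n = 3).

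The effect of CHX without DEX asks which transcripts change when CHX is given to block translation. Of the 23 members, 5 rose and 2 fell (21.7% and 8.7%), where 10.9% of all 22746 probe sets were higher and 16.1% lower (limma, Benjamini-Hochberg adjusted p under 0.05 over all probe sets). The 5 that rose were CYP71B21, CYP84A4, CYP71B24, CYP71B5 and CYP71B23, and the 2 that fell were CYP71B28 and CYP71B29. The median log2 change of the members was 0.31, against -0.05 over all probe sets. In such bulk samples fewer cells of a type and less RNA per cell cannot be told apart.

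CYP71B21, a gene of the long run, had the largest rise. It read 6.32, 6.12 and 6.25 on the untreated arrays and 9.85, 9.75 and 9.83 with CHX alone. The arrays of each group lay close together and the groups were far apart. The rise was 12-fold (log2 change 3.58, SE 0.26; limma adjusted p = 3.13e-07).

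CYP71B24 read 6.64, 5.47 and 6.12 untreated and 9.29, 9.27 and 9.20 with CHX alone. The untreated arrays scattered and those with CHX nearly coincided, with no overlap. The rise was 9.03-fold (log2 change 3.18, SE 0.39; limma adjusted p = 3.69e-05).

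CYP84A4, the arabidopyrone gene, read 6.53, 5.55 and 4.80 untreated and 8.80, 9.26 and 8.93 with CHX alone. Every array with CHX was above every untreated one. The rise was 10.4-fold (log2 change 3.37, SE 0.51; limma adjusted p = 0.000207), and its 95% interval, 2.27 to 4.48, is wider than that of CYP71B21 (3.02 to 4.14).

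CYP71B5 and CYP71B23 were well above the floor without treatment, and their rises were smaller. CYP71B5 went from 8.45, 8.60 and 8.09 to 9.45, 9.47 and 9.68, with no overlap (2.23-fold; limma adjusted p = 0.00109). CYP71B23 went from 9.66, 10.39 and 10.47 to 10.65, 11.19 and 10.90 (1.67-fold; limma adjusted p = 0.0336). For CYP71B23 the highest untreated array is close to the lowest with CHX, and the call was lost in 10 of 24 alternatives, among them leaving out replicate 1 of neither treatment, which moved the change from 0.74 to 0.49 (limma adjusted p = 0.15), or replicate 2 (0.60) or 3 (0.75) of CHX alone.

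The falling pair, CYP71B28 and CYP71B29, are next to each other in the short run on AT1G13090 and AT1G13100. CYP71B28 read 6.31, 6.65 and 6.68 untreated and 4.0, 4.28 and 4.0 with CHX alone. CYP71B29 read 6.25, 6.54 and 6.60 untreated and 5.34, 4.0 and 4.0 with CHX alone. In both genes 2 of 3 arrays with CHX were at the floor, so the log2 changes of -2.46 (SE 0.56; limma adjusted p = 0.00461) and -2.02 (SE 0.52; limma adjusted p = 0.00966) depend on it. With a floor of 64 the change of CYP71B28 was -0.55 and no longer passed (limma adjusted p = 0.144). CYP71B29 had a change of -0.46 there and was still called (limma adjusted p = 0.0367). In the same run the pseudogene CYP71B27 had a change in the other direction of 0.98 (SE 0.68) that did not pass.

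**Figure D2:**
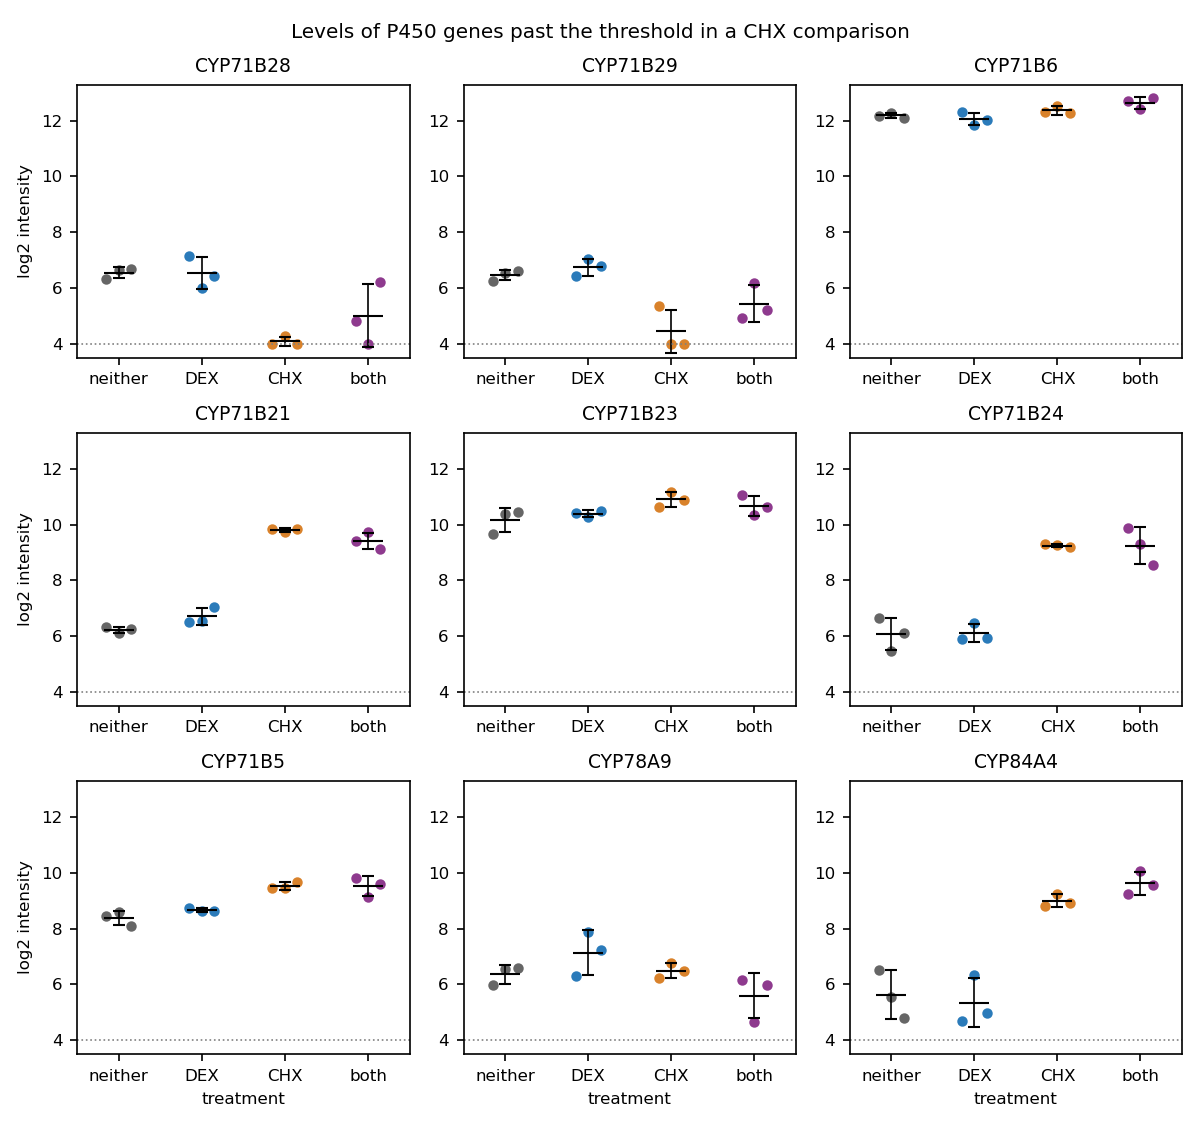
Log2 intensity (y axis) on each array of the 4 groups (x axis) for the 9 genes past the threshold in a CHX comparison; points are arrays, bars the mean and SD of 3, and the dotted line the floor of 4. CYP71B21, CYP71B24 and CYP84A4 lie above 8.5 on all 6 arrays with CHX and below 7.1 on all 6 without it.

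The remaining 16 members did not pass. Among them CYP71B25 had a change of 1.24 (SE 0.73) with no overlap between the arrays, and CYP71B36 one of 1.22 (SE 0.72) with overlap. In all, arrays did not overlap for 6 members on the higher side (background 16.2%) and 2 on the lower side (background 24%). CYP71B6 stood at 12.19 ± 0.09 untreated and 12.37 ± 0.15 with CHX (SD, n = 3), a change of 0.18 with an interval of -0.17 to 0.53. For CYP71B34, CYP71B35 and CYP71B37 the change was 0.02, -0.02 and -0.06, but with standard errors of 0.81, 0.94 and 0.90 a change of several fold either way is within their intervals.

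CHX was then compared in cells that also had DEX. This comparison uses the other 6 arrays, and shares with the former only the estimate of the spread. Of the 23 members, 5 rose and 1 fell (21.7% and 4.35%), where 10.6% of all probe sets were higher and 20.4% lower. Here 4 of the 5 members that rose without DEX rose again (CYP71B21, CYP71B24, CYP71B5 and CYP84A4). Over all probe sets, 80.1% of those higher without DEX were also higher with it. Of the 2 members lower without DEX, 0 were called lower with it, against 82% of all probe sets lower without DEX. The median change of the members was -0.11 against -0.46 over all probe sets. Both depend on scaling: with arrays centred on their medians they were 0.38 and 0.03. The members' median also changed with single arrays, from -0.688 without replicate 3 of DEX alone to 0.298 without replicate 3 of both.

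CYP84A4 had the largest rise, from 4.70, 6.34 and 4.98 with DEX alone to 9.25, 10.06 and 9.57 with both, or 19.6-fold (log2 change 4.29, SE 0.51; limma adjusted p = 2.66e-05). CYP71B24 read 5.89, 6.49 and 5.95 with DEX alone and 9.88, 9.30 and 8.57 with both (8.81-fold; limma adjusted p = 4.13e-05). CYP71B21 read 6.51, 6.56 and 7.06 with DEX alone and 9.41, 9.73 and 9.13 with both (6.56-fold; limma adjusted p = 3.45e-06). In none of these genes did the groups overlap, and all 3 kept their calls in both CHX comparisons under each of the 24 alternatives. For CYP71B5 the log2 change was 0.85 (SE 0.22), a 1.81-fold rise with a limma adjusted p of 0.00859. Arrays did not overlap for 5 members on the higher side (background 13.2%) and 2 on the lower side, CYP71B29 and CYP78A9 (background 27.5%).

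CYP71B6, the indole-3-acetonitrile enzyme gene, rose here and did not pass without DEX. It read 12.30, 11.85 and 12.03 with DEX alone and 12.71, 12.41 and 12.81 with both, a 1.5-fold rise (log2 change 0.58, SE 0.16; limma adjusted p = 0.0157). The call was lost in 6 of 24 alternatives: the change was 0.03 after quantile normalization, 0.48 without replicate 2 of DEX alone, and 0.50 with replicate 3 of both left out. The difference from its change without DEX was 0.40 (SE 0.23) and did not pass (limma adjusted p = 0.664). CYP71B23, called without DEX, had a change of 0.28 (SE 0.24; limma adjusted p = 0.408) with it.

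CYP78A9, the fruit and seed growth gene, was the 1 member that fell. It read 6.30, 7.89 and 7.23 with DEX alone and 6.15, 4.66 and 5.99 with both. Every array with both was below every array with DEX alone, the closest pair being 6.15 and 6.30. The log2 change of -1.54 (SE 0.54) is a 2.9-fold fall, with a limma adjusted p of 0.048. The call was lost in 18 of 24 alternatives, among them leaving out replicate 2 or 3 of DEX alone, replicate 2 or 3 of both, or any 1 array of the other groups. Without DEX its change was 0.12 (SE 0.54). CYP71B28 and CYP71B29 again had changes under 0, at -1.52 (SE 0.56; limma adjusted p = 0.0571) and -1.32 (SE 0.52; limma adjusted p = 0.0718), which did not pass. On the array with both treatments where CYP71B28 was highest, it read 6.23, within the range of DEX alone (6.0 to 7.16).

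**Figure D3:**
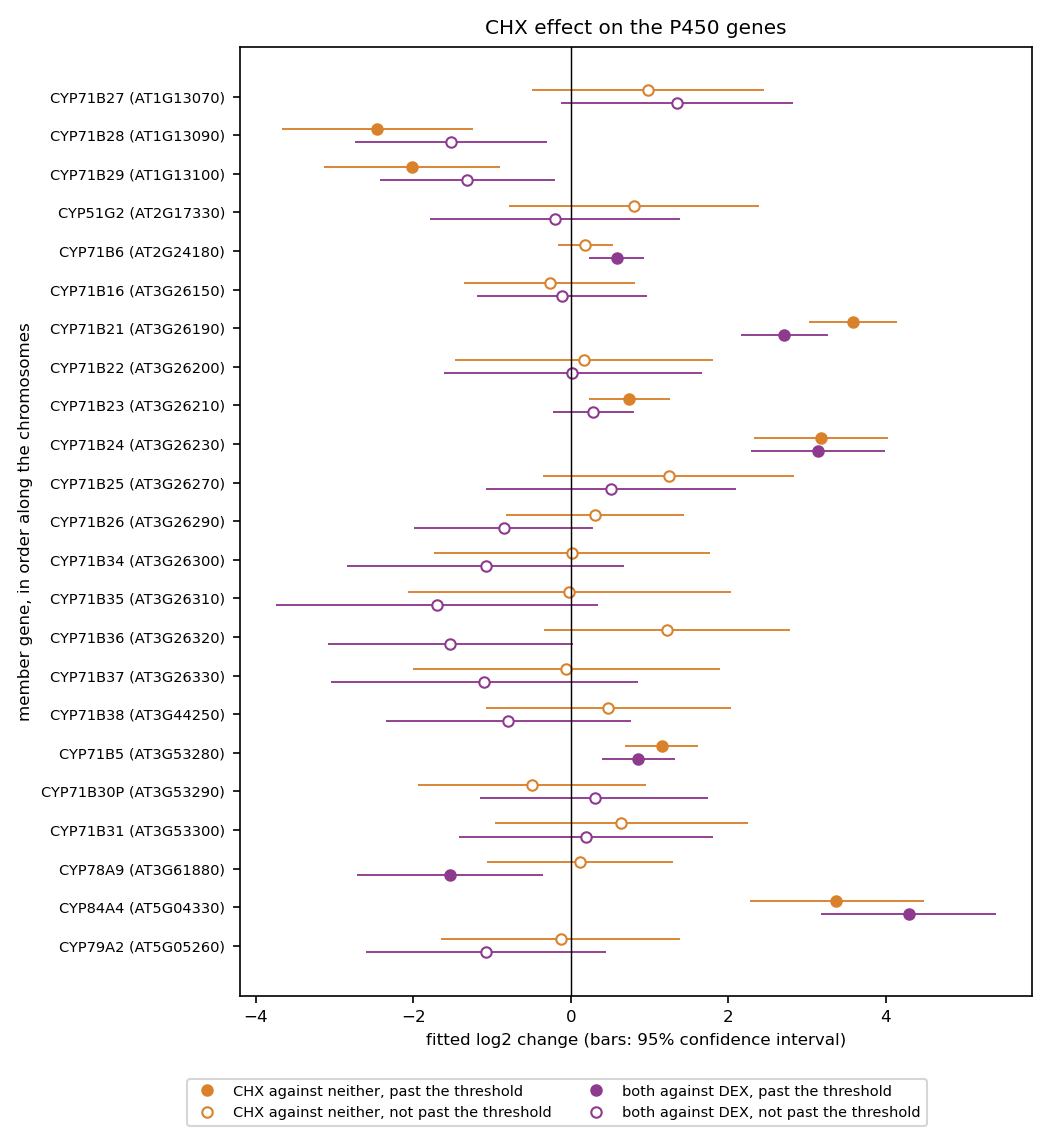
Fitted log2 change with CHX (x axis; bars are 95% confidence intervals) for the 23 genes in order along the chromosomes (y axis), without DEX in orange and with DEX in purple; filled points passed the threshold. CYP71B21, CYP71B24, CYP71B5 and CYP84A4 are filled in both, while CYP71B22 and CYP71B30P have intervals that include 0.

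Within the long run the response to CHX was uneven from gene to gene. Along AT3G26190, AT3G26200, AT3G26210 and AT3G26230 the changes without DEX were 3.58 for CYP71B21, 0.17 for CYP71B22, 0.74 for CYP71B23 and 3.18 for CYP71B24, and with DEX 2.71, 0.02, 0.28 and 3.14. CYP71B22 lies between 2 members that rose, but at 5.84, 4.0 and 4.81 untreated it was near the floor, and its interval runs from -1.47 to 1.80. The other 7 members of the run (CYP71B16, CYP71B25, CYP71B26 and CYP71B34 to CYP71B37) did not pass in either CHX comparison. Over the 11, the median change was 0.31 without DEX and -0.11 with DEX, and over the 8 CYP71B genes outside the run it was 0.33 and 0.24. The median standard error of a change in the run was 0.72. Of 3 ratios of RNA quality (3′ to 5′ signal), 2 were lower with CHX alone than untreated, without overlap: ubiquitin (5.08 to 6.10 against 6.26 to 7.58) and GAPDH (2.19 to 2.30 against 2.49 to 4.17). Actin overlapped (5.66 to 16.62 against 5.37 to 9.24). In cells given DEX the ubiquitin ratio was 5.97 to 6.78 without CHX and 6.51 to 8.01 with it. The part of RNA quality in the P450 values was not tested. Of the root markers, PYK10 fell by 4.75 and NAI2 fell by 2.30 on the log2 scale with CHX without DEX, while EXPA7 (-1.06) did not pass. The shoot marker RCA also fell (log2 changes -1.18 without DEX and -1.55 with it; limma adjusted p = 0.0128 and 0.00204). The part of these markers in the P450 values was not tested.

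In cells able to make protein, DEX can change targets of nuclear ABI3 and genes further downstream. None of the 23 members passed in limma, where 0.0132% of all probe sets were higher and 0% lower, and 0 passed in the unmoderated fit. At an unadjusted p under 0.05 in limma there were 0 members, against 6.42% of all probe sets. The smallest adjusted p of a member was 0.827. The members' median change was 0.29 against 0.10 over all probe sets, with 16 of 23 above 0 (69.6%, against 59.4% of all). Without replicate 2 of neither treatment the members' median was 0.034, and with arrays centred on their medians it was 0.092. The largest changes above 0 were those of CYP71B36 (1.07, SE 0.72), CYP71B35 (1.04, SE 0.94) and CYP71B34 (0.98, SE 0.81), which lie in the long run beside CYP71B37 (-0.03, SE 0.90). On the untreated arrays CYP71B34 read 6.25, 4.0 and 5.86, with replicate 2 at the floor, and CYP71B36 read 4.0, 4.50 and 5.90, with replicate 1 at the floor. Without replicate 2 of neither treatment the change was 0.19 for CYP71B35 and 0.30 for CYP71B34, and without replicate 1 it was 0.67 for CYP71B36. The largest under 0 were those of CYP84A4 (-0.29, SE 0.51), CYP71B27 (-0.24, SE 0.68) and CYP71B25 (-0.19, SE 0.73).

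The arrays did not overlap for 2 members, both higher with DEX (8.7%, background 6.87% higher and 4.69% lower). CYP71B21 went from 6.12 to 6.32 untreated to 6.51, 6.56 and 7.06 (change 0.48, interval -0.08 to 1.04), and CYP71B5 from 8.09 to 8.60 to 8.74, 8.65 and 8.62 (0.29, interval -0.18 to 0.76). For the genes measured best the intervals bound the DEX effect: -0.48 to 0.23 for CYP71B6 and -0.29 to 0.74 for CYP71B23. For dim genes they do not; that of CYP71B35 runs from -1.0 to 3.09.

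In cells given CHX, a DEX response should not pass through newly made proteins, as far as CHX blocked their synthesis. The extent of that block was not measured by these arrays. Again no member passed in limma, where 0.255% of all probe sets were higher and 0.0176% lower, and 0 passed in the unmoderated fit. At an unadjusted p under 0.05 in limma there was 1 of 23 members, against 7.83% of all probe sets. The median change was -0.12, the same as over all probe sets (-0.12). The largest changes above 0 were CYP71B29 (0.98, SE 0.52), CYP71B28 (0.92, SE 0.56) and CYP71B30P (0.67, SE 0.67). The first pair are the genes that CHX alone took to the floor on 2 of 3 arrays.

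The largest changes under 0 were CYP71B36 (-1.68, SE 0.72), CYP71B37 (-1.07, SE 0.90) and CYP71B26 (-1.06, SE 0.52). CYP71B36 read 5.34, 5.72 and 6.98 with CHX alone and 4.0, 5.01 and 4.0 with both, so that 2 of 3 arrays with both were at the floor (unadjusted p = 0.0367 and adjusted p = 0.607 in limma). CYP71B26 read 6.90, 6.86 and 6.43 with CHX alone and 5.57, 5.99 and 5.45 with both. With CYP71B21 and CYP78A9, these 2 made up the 4 members whose arrays were lower without overlap (17.4%, background 7.68%), and none was higher (background 4.26%). The ubiquitin ratio did not overlap between these groups either, at 5.08 to 6.10 with CHX alone and 6.51 to 8.01 with both. Nor did the GAPDH ratio (2.19 to 2.30 against 2.50 to 4.33), while actin overlapped (5.66 to 16.62 against 4.79 to 11.44). The part of these ratios was not tested.

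**Figure D4:**
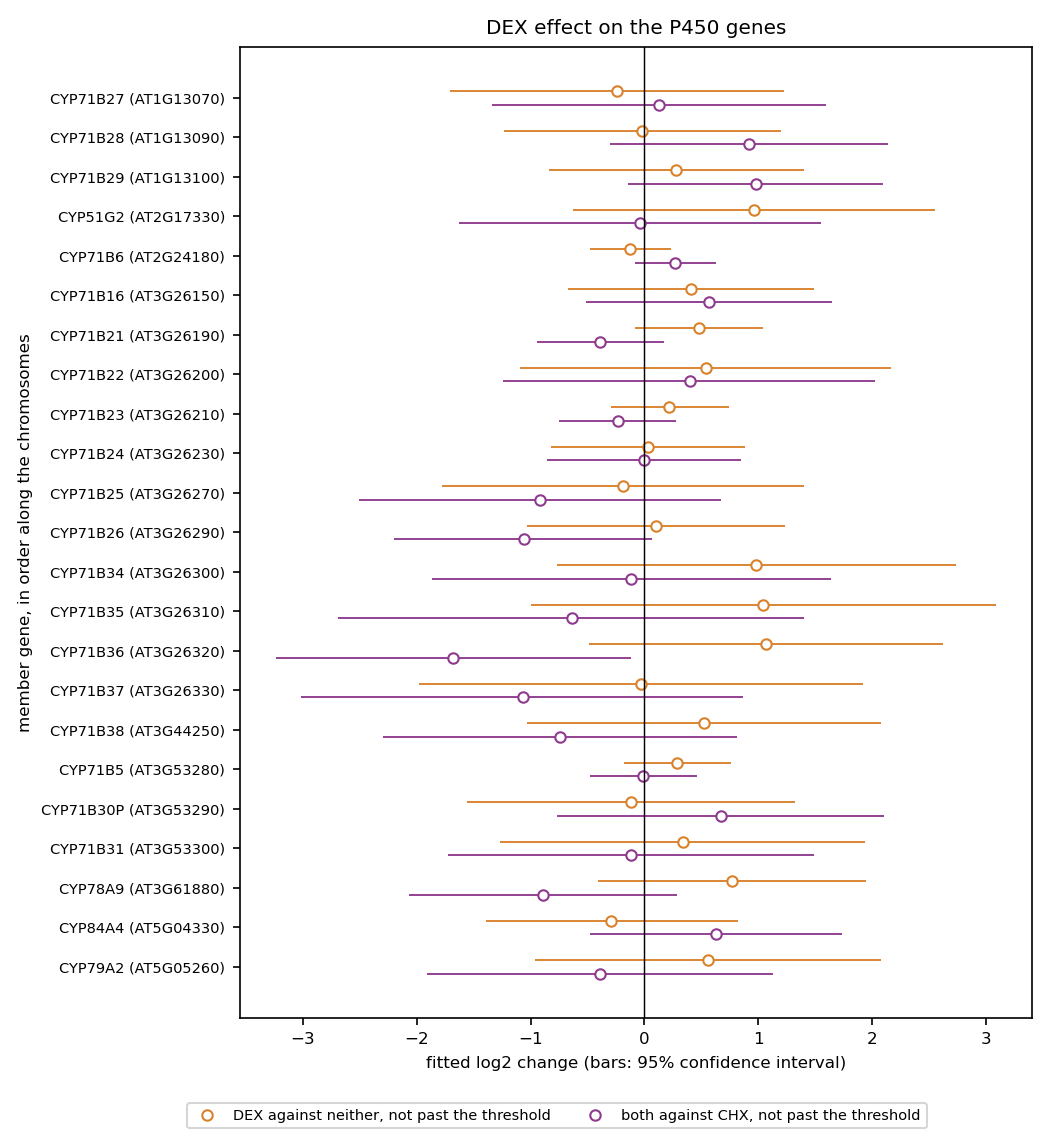
Fitted log2 change with DEX (x axis; bars are 95% confidence intervals) for the same 23 genes (y axis), without CHX in orange and with CHX in purple; no gene passed the threshold. Intervals of dim genes such as CYP71B35 (-1.0 to 3.09 without CHX) span several fold, while those of CYP71B6 and CYP71B5 stay within 0.8 of 0.

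The interaction tests whether the DEX effect differs with CHX. No member passed in limma (0.0044% of all probe sets were higher and 0% lower), and 0 passed in the unmoderated fit. At an unadjusted p under 0.05 in limma there were 2 of 23 members, against 7.98% of all probe sets. The lowest values were those of CYP71B36 (-2.75, SE 1.02; limma adjusted p = 0.537), CYP71B35 (-1.68, SE 1.34) and CYP78A9 (-1.66, SE 0.77). The highest were CYP71B28 (0.94, SE 0.79), CYP84A4 (0.92, SE 0.72) and CYP71B30P (0.79, SE 0.94). The value of CYP71B28 rests on a group with 2 of 3 arrays at the floor and ran from 0.10 to 1.96 over its alternatives. For CYP71B36, 2 of 3 arrays with both and 1 untreated array were at the floor, and its value ran from -4.18 to -0.71. For CYP71B35, 1 array with both was at the floor, and the range was -2.74 to -0.61. CYP78A9, never at the floor, ran from -2.08 to -1.19. CYP71B21 had arrays that lay higher with DEX alone than untreated and lower with both than with CHX alone; its interaction was -0.87 (SE 0.36; limma adjusted p = 0.604).

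By position, 10 of the 11 members of the long run had an interaction under 0 (90.9%), where 63% of all probe sets had one. The run's median was -0.87 and that of all probe sets -0.22. Of the 8 CYP71B members outside the run 3 were under 0, with a median of 0.39. With arrays centred on their medians the run had 8 of 11 under 0 and a median of -0.51, where the median of all probe sets was 0.14. Without replicate 3 of both, where 8 members were at the floor, it had 8 of 11 and a median of -0.60. After quantile normalization the run's median was -0.44, where the median of all probe sets was 0.02. The shares of all probe sets under 0 in these settings are not given here. No gene of the run passed alone, its genes share arrays, and the comparison of both sets was made after their values were seen.

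Genes that work with P450s in the same pathways gave little further information. Of 90 P450 entries in 5 pathway lists only 3 were named alone by a probe set. They were CYP71B6 and CYP79A2 (glucosinolates and indoles) and CYP78A9 (hormones and growth). The other entries are not shown to be absent from the array. CYP79A2 was near the floor, at 5.50 ± 1.33 untreated, 6.06 ± 1.07 with DEX, 5.37 ± 0.45 with CHX and 4.98 ± 0.54 with both (SD, n = 3), and passed in no comparison. Of 143 partner entries 8 were measured, and none passed in a DEX comparison or the interaction. With CHX alone the phenylpropanoid list, with 3 measured, had 1 that rose and 1 that fell: CCR2, a cinnamoyl-CoA reductase gene, by 2.01 (SE 0.19) and HCT by -5.09 (SE 0.48). The glucosinolate list, with 4 measured, had 1 that fell, the transporter gene GTR2 (-1.73, SE 0.37; limma adjusted p = 0.00302), while GTR1 had 0.31 (SE 0.18). The triterpenoid list had 1 measured gene, LUP5 (0.50, SE 0.78), and the electron donor and hormone lists none.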

How the data were processed

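Biotin-labelled total RNA was hybridised to 12 arrays of 22810 probe sets, per the labels. The authors deposited linear intensities, 1 per probe set and array; every array has the same mean after trimming 2% at each end, as the values show. The software behind them was not given in the sources. Values under 16 were set to 16 before log2. The 64 control probe sets were left out and 22746 tested; 13513 name 1 gene (13436 matched the TAIR10.1 gene table by Entrez ID), 503 several and 8730 none. A probe may also bind near-identical P450 genes, which could not be checked without probe sequences.

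The test was limma (version 3.58.1, run in R version 4.3.3; eBayes using the variance trend) on group means of all 12 arrays, with Benjamini-Hochberg adjustment over all probe sets and a threshold of 0.05. The fit was tested on simulated data. Changes there were put only in probe sets clearly above the floor in untreated cells. How well changes in members near the floor are found was not tested. The number of arrays limits the precision.

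Named genes are members past the threshold (up to 10 each way per comparison), the 3 largest changes each way for DEX and the interaction, extremes of the subfamily and pathway members. Members, lists and this rule were chosen with earlier results of these data known; the gene meant by 2 list entries (CCR2 and CHI) was corrected later. Alternatives were other scalings, floors, filters and fits, and each array left out; leaving out both arrays of lowest weight was chosen after seeing the data. Python 3.11.15, pandas 2.3.3 and matplotlib 3.10.9 made tables and figures.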

Additional observations from a re-analysis of the deposited data

Results flagged for a closer look

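One P450 probe set outside the members gave a clear signal. It names a pair of CYP71B genes of the run from AT3G26150 to AT3G26330 and so was kept out of the 23. The level was 9.80 ± 0.04 untreated and 7.33 ± 0.52 with CHX alone (SD, n = 3), a change of -2.46 (SE 0.27; limma adjusted p = 1.08e-05), and 9.45 ± 0.12 with DEX and 7.58 ± 0.29 with both (SD, n = 3; -1.87, SE 0.27; limma adjusted p = 0.000122). It fell where CYP71B21 and CYP71B24 of the same run rose, and which of its genes fell cannot be told apart.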

How the results depend on the processing

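No called member changed direction in any of up to 24 alternatives. The 5 members higher with CHX alone ranged from 4 to 5 without 1 array, and the 5 higher with CHX in cells given DEX from 4 to 5; the latter were 3 with a 2-fold minimum, by construction, and 6 with centred arrays. CYP71B27, not called there (1.35), was called after quantile normalization (2.00; limma adjusted p = 0.00796) and with centred arrays (1.84; limma adjusted p = 0.03). The 2 members lower with CHX alone were 2 without any 1 array, 1 with a floor of 64, and 0 under the filter on mean level, which leaves out 13 members, CYP71B28 and CYP71B29 included. The 1 member lower with CHX in cells given DEX ranged from 0 to 2 without 1 array. It was 0 after quantile normalization, centring, with a pseudocount of 1, unmoderated, with array weights, or with only the arrays compared, 2 with a floor of 64, 3 without the variance trend, and 2 without both arrays of lowest weight; the cause was not tested. The counts of 0 for both DEX comparisons and the interaction were 0 in each alternative. Same-numbered arrays did not consistently deviate together (correlations -0.439 to 0.294, 4 of 18 over 0.1, best with their own number in 10 of 36 cases). The correlations were all above 0 between DEX alone and both (0.068 to 0.294). They were all under 0 between neither treatment and both (-0.439 to -0.091). The numbers were not taken to pair the arrays. With the replicate block the CHX counts were 4 higher and 2 lower without DEX, and 5 higher and 0 lower with it. Signal limits the dimmer members: 14 of the 23 were at the floor on at least 1 array.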

Other observations

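The P450 gene CYP718, whose symbol has no subfamily letter, was at 5.61 ± 1.43 untreated and 4.45 ± 0.77 with CHX alone (SD, n = 3), a change of -1.16 (SE 0.72; limma adjusted p = 0.301). A probe set that names a P450 gene together with another gene was at 4.72 ± 1.24 and 4.38 ± 0.41 (SD, n = 3) in the same groups and passed in no comparison.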
